A study of Mus musculus with 10 samples.

Results

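Heme is built by a chain of enzymes and opened again by heme oxygenase, and the 9 mouse genes described here encode most of that route: Alas1, Alas2, Alad, Uros, Urod, Cpox, Ppox, Fech and Hmox1. They were chosen by name, in pathway order, from the 55385 gene identifiers of the EP300 count table, and all 9 were present. The RNA came from mouse liver hepatocytes of the strain given as C57BL/6J 129SV. Every EP300 library also has the tag HCC (hepatocellular carcinoma) in its name, so its cells may include tumour cells. The share of tumour cells in a library was not tested. The libraries labelled EP300 KO (genotype EP300-/-, 2 libraries) came from EP300f/f mice given AAV-TBG-Cre, a virus whose TBG promoter directs Cre to hepatocytes. The libraries labelled EP300 WT (genotype EP300f/f, 2 libraries) came from mice given AAV-TBG-GFP. All 4 libraries came from mice that received the porphyrin-inducing DDC diet and the pT3-cMet plasmid by hydrodynamic tail vein injection, with a treatment time of 5 months. DDC was therefore common to both labels, and these libraries hold no measure of what DDC itself did. Neither age nor sex is given. Pooling of material is mentioned and no label says which animals made up a library, so a p-value here reflects how far these libraries vary, and that variation may be technical. The other 6 libraries of the series, Met and DDC+Met, were counted against identifiers of which 0 carry the mouse prefix, and they were not used here.

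Heme synthesis begins in the mitochondrion, where an ALA synthase joins glycine and succinyl-CoA to make 5-aminolevulinic acid. Cytosolic enzymes turn that product into porphyrinogens, and mitochondrial enzymes finish the ring, into which ferrochelatase (Fech) inserts iron. In liver the first step, catalysed by Alas1, is the rate-limiting one and is held down by heme itself. DDC leads to an N-alkylated porphyrin that blocks ferrochelatase, so that protoporphyrin gathers in the liver of treated mice; it is a classic model of porphyria and of bile duct injury.

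The libraries held 17709799 and 17811489 counts under the KO label, against 18575701 and 18831671 under the WT label. The targeted gene did not follow its label: Ep300 had 73.7 and 72.3 CPM (counts per 1000000 counts of the TMM-scaled library) in the KO-labelled libraries, against 62.3 and 57.9 CPM in the WT-labelled libraries (log2 fold change 0.28, SE 0.07, edgeR adjusted p = 0.00498). A gene-level count does not show whether an exon was removed, so every direction given here follows the labels of the libraries. Xist, the RNA of X inactivation, had 2310 and 1411 counts in the KO-labelled libraries, against 3 and 2 in the WT-labelled ones. The Y-linked gene Ddx3y had 954 and 813 counts in the KO-labelled libraries, against 1079 and 1077 in the WT-labelled ones. The KO and WT labels therefore also separate the libraries by Xist, and the part of this difference in any result below cannot be told apart from that of the label. The hepatocyte markers Alb, Apoa1 and Ttr were abundant in all 4 libraries, with the 12 hepatocyte markers of a chosen list summing to 122725 and 128370 CPM under the KO label, against 145333 and 144435 CPM under the WT label.

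The ALA synthases at the start of the pathway were higher in the KO-labelled libraries, while Fech, which inserts iron, and Hmox1, which opens heme, showed no called change. Alas1 rose 1.79-fold and Alas2 7.22-fold, Cpox rose 1.36-fold, and Ppox (1.25-fold) and Uros (1.22-fold) rose by less. Alad, Urod, Fech and Hmox1 did not pass the threshold of an adjusted p of 0.05. In all, 5 of the 9 genes passed upward (edgeR, adjusted over all 14200 genes tested), where 16.7% of all genes tested did so and 34.2% passed in either direction. None of the 9 passed downward (0 also at an unadjusted p of 0.05, with limma-voom and with DESeq2), where 17.5% of all genes did. The median log2 fold change of the 9 genes was 0.29, beside -0.01 over all genes tested. At a threshold of 2-fold as well, 1 of the 9 genes passed upward, Alas2, where 3.15% of all genes did and 8.16% passed in either direction. The values of the KO-labelled libraries lay above those of the WT-labelled ones in 6 of the 9 genes, which was so for 32.9% of all genes. The count of 5 was 3 without EP300 WT replicate 1 and 3 without EP300 WT replicate 2, in both cases because Uros and Ppox no longer passed.

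**Figure D1:**
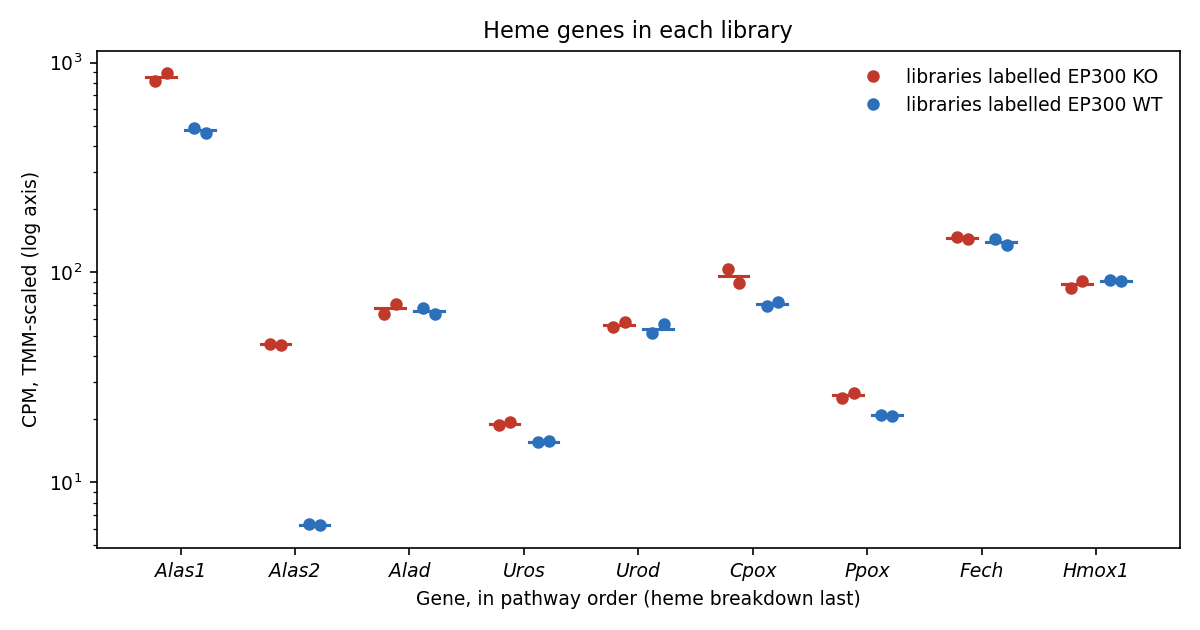
CPM (TMM-scaled, log axis) of the 9 genes in pathway order, in the 2 libraries labelled EP300 KO and the 2 labelled EP300 WT; points are libraries and short lines are means. Alas1 and Alas2 are clearly separated between labels, whereas Alad, Urod and Hmox1 overlap.

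**Figure D2:**
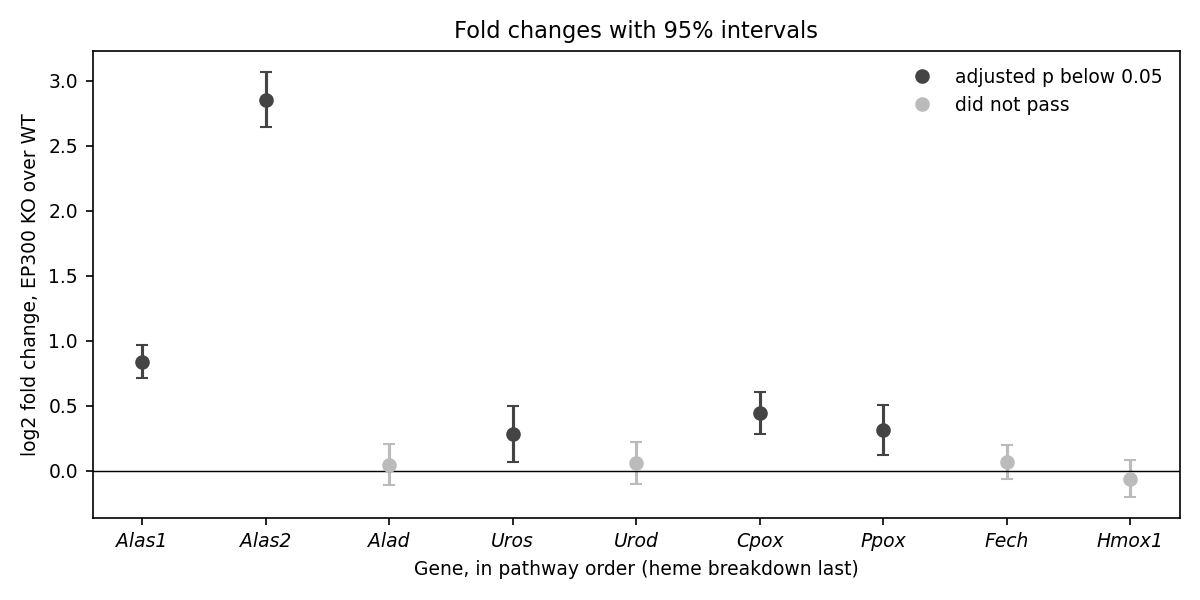
Log2 fold change (EP300 KO over WT, edgeR) of the 9 genes in pathway order, with 95% intervals as bars; dark points passed an adjusted p of 0.05 and pale points did not. The largest change is that of Alas2 (2.85), and the intervals of Alad, Urod, Fech and Hmox1 cross 0.

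The ALA synthases catalyse the same reaction from separate genes. Alas1 (chromosome 9, 106233455 to 106248654, minus strand, mm10) is the form used in liver and most tissues. It had 814 and 888 CPM in the KO-labelled libraries, against 489 and 462 CPM in the WT-labelled libraries. Both KO-labelled libraries stood far above both WT-labelled ones. The log2 fold change was 0.84 (SE 0.06, 95% interval 0.72 to 0.96, edgeR adjusted p = 1.45e-08), with values of 0.78 to 0.91 when any library was left out. These values rest on 14071 and 15450 counts under the KO label, against 9294 and 8882 under the WT label, and 7.53% of the exon bases are shared with an annotated gene on the opposite strand.

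Alas2 (chromosome X, 150547375 to 150570638, plus strand, mm10) is the form of red cell precursors. It had 45.7 and 45.1 CPM in the KO-labelled libraries, against 6.32 and 6.24 CPM in the WT-labelled libraries. The libraries of a label agreed closely, and the labels were far apart. The log2 fold change was 2.85 (SE 0.10, 95% interval 2.64 to 3.07, edgeR adjusted p = 3.64e-12), from 790 and 784 counts under the KO label, against 120 and 120 under the WT label. Of its exon bases, 15.5% are shared with other annotated genes, mainly Apex2 on the opposite strand, and the library kit does not mark strand. Apex2 itself had 194 and 208 counts in the KO-labelled libraries, against 197 and 229 in the WT-labelled libraries (log2 fold change 0.06, edgeR adjusted p = 0.769). Counts of Apex2 thus overlapped between labels, unlike those of Alas2.

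The regulatory sequences of both ALA synthases and of Cpox are shown because these 3 genes rose and kept their call with each library left out. Of the 9 genes, 7 had a promoter in the RefSeq table (GRCm38.p6, 250 bases before to 50 after a start, 10 entries). In the Alas2 and Cpox promoters, both on the plus strand, capitals mark the hexamers AGATAA or TGATAA, read on either strand, to which GATA factors bind. The Alas2 sequence is printed up to its first exon in GENCODE M21, and the Cpox sequence up to its RefSeq start, which lies before the GENCODE start given for that gene below. In Alas1 (minus strand) capitals mark the core GCATGCG on both strands, from the palindrome to which the transcription factor NRF1 binds. This Alas1 stretch lies after the RefSeq start of the entry used, inside the GENCODE gene, and before the start of its other entry. In the Alas2 transcript (GENCODE M21) capitals mark the loop of the iron-responsive element, the hairpin through which iron regulatory proteins hold back translation.
Alas2 promoter, chrX:150547167-150547374: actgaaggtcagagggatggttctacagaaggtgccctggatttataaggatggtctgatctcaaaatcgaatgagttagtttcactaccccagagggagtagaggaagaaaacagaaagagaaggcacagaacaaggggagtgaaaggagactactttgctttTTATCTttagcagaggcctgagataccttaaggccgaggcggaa
Cpox promoter, chr16:58669958-58670207: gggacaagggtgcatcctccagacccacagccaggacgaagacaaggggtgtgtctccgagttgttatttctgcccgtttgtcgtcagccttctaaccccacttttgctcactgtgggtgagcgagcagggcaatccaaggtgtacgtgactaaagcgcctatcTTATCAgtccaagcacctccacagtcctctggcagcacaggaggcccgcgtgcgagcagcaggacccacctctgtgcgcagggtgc
Alas1 NRF1 core, chr9:106247906-106247935: cgcacccaaggCGCATGCGcggcggtcact
Alas2 iron-responsive element, chrX:150547456-150547485: ctttggttcgtcctCAGTGCagggcaacag
The marked hexamer of Alas2 begins 44 bases before its GENCODE start. That of Cpox, 1 of 2 in its 300-base window, begins 86 bases before its RefSeq start. Hexamers of this kind are in 18.6% of the 32851 promoters of the table and, among the 7 genes, in Alas2, Cpox and Uros. The NRF1 core is in 3.58% of all promoters and, among the 7, in Alas1 alone. The E-box CACGTG (7.15% of promoters) matched Alad, Urod and Uros, the nuclear receptor core AGGTCA (16.3%) matched Alas2, and the letters TGANNNNGC (41.3%), a core of NRF2 and BACH1 sites, matched Uros and Cpox. A match describes the letters of these windows and says nothing of binding. The genes that rose thus share no single one of the 5 motifs searched.

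Because Alas2 marks red cell precursors, it was read beside a list of 18 erythroid markers, of which 17 were in the table. Their summed level was 14.9 and 10.3 CPM in the KO-labelled libraries, against 10.6 and 10.4 CPM in the WT-labelled libraries. The ranges overlap. The sum of all 17 was below the level of Alas2 alone in both KO-labelled libraries. It was above that level in both WT-labelled libraries, where Alas2 had 6.32 and 6.24 CPM. CPM takes no account of gene length, so these are orders of counts only. The adult globin gene Hba-a1 had 41 and 27 counts under the KO label, against 26 and 44 under the WT label, and Hbb-bs had 56 and 44 counts under the KO label, against 58 and 33 under the WT label. Gata1, the master factor of red cell development, had 1 and 0 counts under the KO label, against 1 and 2 under the WT label. The counts of Hba-a1 and Hbb-bs were thus low, with ranges that overlap between labels. Reads of globin genes could be split among or lost between near-identical copies, so these values are uncertain as a measure of globin RNA. Gata1 was near 0, and Tspo2 and Trim10 had no count in any library. The 12 markers below the count filter had at most 6 counts in a library.

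Of the 5 erythroid markers tested, 1 rose and 0 fell (edgeR; at an unadjusted p of 0.05, 1 was lower; with DESeq2 and limma-voom, 0), with a median log2 fold change of 0.10. Over all genes tested, 16.7% rose and 17.5% fell, so 1 of 5 upward is near that background. The marker that rose was Klf1, an erythroid transcription factor, with 99 and 66 counts under the KO label, against 37 and 41 under the WT label (log2 fold change 1.22, SE 0.26, edgeR adjusted p = 0.00151). Its call was lost without EP300 WT replicate 2, where the adjusted p lay at the threshold, and with no count filter, where it was 0.0539. Tal1, another such factor, had 25 and 12 counts under the KO label, against 32 and 42 under the WT label, and did not pass (adjusted p = 0.0908). In bulk RNA, fewer cells of a type and less RNA per cell cannot be told apart, for these markers as for those of the other cell types below.

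**Figure D3:**
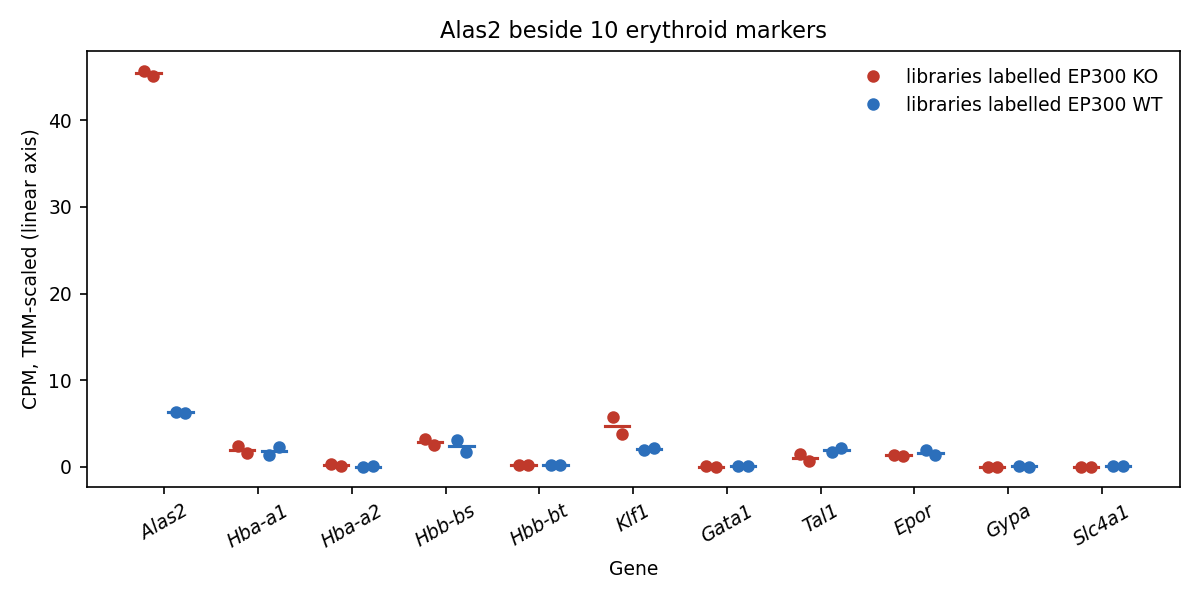
CPM (TMM-scaled, linear axis) of Alas2 and 10 erythroid markers in the 2 libraries labelled EP300 KO and the 2 labelled EP300 WT; points are libraries and short lines are means. Alas2 stands at 45.7 and 45.1 CPM in the KO-labelled libraries, while no marker shown exceeds 5.73 CPM in any library.

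Of the 5 middle enzymes, which carry 5-aminolevulinic acid to protoporphyrin, 3 passed the test upward, each with a smaller fold change than either ALA synthase. Their median log2 fold change was 0.29. Cpox (chromosome 16, 58670292 to 58717636, plus strand) oxidises coproporphyrinogen in the mitochondrial intermembrane space. It had 104.0 and 88.7 CPM in the KO-labelled libraries, against 69.1 and 72.4 CPM in the WT-labelled libraries. The labels did not overlap, although the KO-labelled libraries were themselves apart. The log2 fold change was 0.45 (SE 0.08, 95% interval 0.28 to 0.61, edgeR adjusted p = 0.000280), with values of 0.34 to 0.56 when any library was left out. Of its exon bases, 3.06% are shared with Gpr15 on the opposite strand, which had at most 2 counts in a library.

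Ppox (chromosome 1, 171275990 to 171281186, minus strand) oxidises protoporphyrinogen, the step before iron insertion. It had 25.2 and 26.6 CPM in the KO-labelled libraries, against 20.9 and 20.7 CPM in the WT-labelled libraries. Its log2 fold change was 0.32 (SE 0.09, 95% interval 0.12 to 0.51, edgeR adjusted p = 0.0130), and 17.5% of its exon bases are shared with B4galt3 on the other strand. B4galt3 did not pass (log2 fold change 0.04, edgeR adjusted p = 0.828).

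Uros (chromosome 7, 133686243 to 133710072, minus strand) closes the ring as uroporphyrinogen III. It had 18.8 and 19.3 CPM in the KO-labelled libraries, against 15.5 and 15.7 CPM in the WT-labelled libraries. The log2 fold change was 0.29 (SE 0.10, 95% interval 0.07 to 0.50, edgeR adjusted p = 0.0398). Uros and Ppox had 294 to 463 counts in a library, and their calls were lost with DESeq2, with no count filter and without either WT-labelled library. With DESeq2 the adjusted p was 0.276 for Uros and 0.131 for Ppox.

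Alad and Urod showed no separation between labels. Alad (chromosome 4, 62509169 to 62519918, minus strand), which condenses 5-aminolevulinic acid to porphobilinogen and is inhibited by lead, had 63.6 and 71.0 CPM in the KO-labelled libraries, against 67.4 and 63.1 CPM in the WT-labelled libraries. Its log2 fold change was 0.05 (SE 0.07, 95% interval -0.11 to 0.20, edgeR adjusted p = 0.680). Urod (chromosome 4, 116989965 to 116994413, minus strand), the decarboxylase that is deficient in porphyria cutanea tarda, had 54.8 and 57.7 CPM in the KO-labelled libraries, against 51.2 and 56.6 CPM in the WT-labelled libraries. Its log2 fold change was 0.06 (SE 0.08, 95% interval -0.10 to 0.22, edgeR adjusted p = 0.580). Both intervals leave out a change as large as that of Alas1 or Cpox.

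Ferrochelatase, the enzyme that DDC blocks, did not differ detectably between labels. Fech (chromosome 18, 64452914 to 64490251, minus strand) had 148 and 145 CPM in the KO-labelled libraries, against 144 and 135 CPM in the WT-labelled libraries. The KO-labelled libraries lay above the others without overlap, which was so for 32.9% of all genes, and the gap was small. The log2 fold change was 0.07 (SE 0.06, 95% interval -0.06 to 0.20, edgeR adjusted p = 0.418), from 2559 and 2517 counts under the KO label, against 2727 and 2604 under the WT label.

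Heme oxygenase 1 opens the heme ring, releasing iron, carbon monoxide and biliverdin, and is induced by heme and by oxidative stress. Hmox1 (chromosome 8, 75093621 to 75100589, plus strand) had 84.4 and 90.8 CPM in the KO-labelled libraries, against 92.0 and 90.5 CPM in the WT-labelled libraries. The ranges overlap. The log2 fold change was -0.06 (SE 0.07, 95% interval -0.20 to 0.08, edgeR adjusted p = 0.535).

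Read against the middle enzymes of the same library, which needs no library scaling, Alas1 was higher and Fech and Hmox1 were lower in the KO-labelled libraries. Alas1 counts were 3.06 and 3.37 times the summed counts of Alad, Uros, Urod, Cpox and Ppox in the KO-labelled libraries, against 2.18 and 2.02 times in the WT-labelled libraries. The mean log2 ratio differed by 0.61 (KO minus WT). Fech counts were 0.556 and 0.549 of that sum in the KO-labelled libraries, against 0.641 and 0.592 in the WT-labelled libraries, a log2 difference of -0.16. For Hmox1 the ratios were 0.317 and 0.345 in the KO-labelled libraries, against 0.411 and 0.396 in the WT-labelled libraries, a log2 difference of -0.29. The Alas2 log2 ratio was higher by 2.63. No ratio overlapped between labels. That is common here, as the KO-labelled libraries lay above the others in 32.9% of all genes tested and below in 33.5%. The 4 ratios also share a denominator. The exact two-sided permutation test of 2 libraries against 2 cannot give a p below 0.333, which is what it gave for each of the 4 ratios. The lower Fech and Hmox1 ratios go with the higher sum of the middle enzymes, which was 266 and 263 CPM in the KO-labelled libraries, against 224 and 229 CPM in the WT-labelled libraries.

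**Figure D4:**
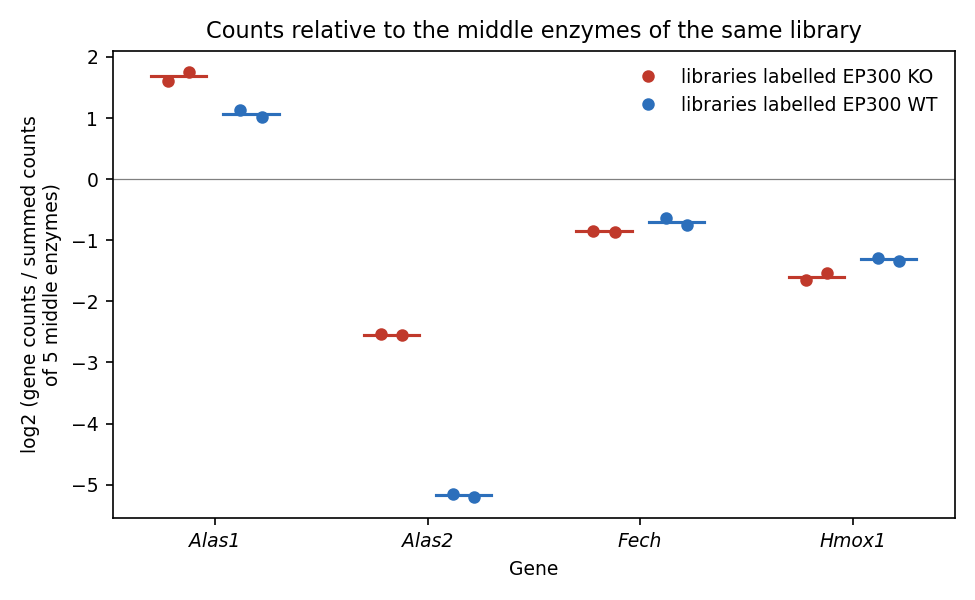
Log2 of the counts of Alas1, Alas2, Fech and Hmox1 over the summed counts of the 5 middle enzymes in the same library, for the 2 libraries labelled EP300 KO and the 2 labelled EP300 WT; points are libraries and short lines are means. The ALA synthases lie higher in the KO-labelled libraries and Fech and Hmox1 lower, without overlap.

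Compared per length, as TPM (counts over summed exon length, scaled to a sum of 1000000 per library), the order of levels began with Alas1, Hmox1, Alad and Urod under both labels. Alas1 had 307 and 336 TPM in the KO-labelled libraries, against 199 and 184 TPM in the WT-labelled libraries. Hmox1 followed with 112 and 121 TPM under the KO label, against 132 and 127 TPM under the WT label. Alas1 thus led by a wide margin in each library and made up 45.8% of the summed TPM of the 9 genes under the KO label, against 35.5% under the WT label. Alas2 held the ninth and lowest place under the WT label with 6.59 and 6.38 TPM, and had 44.3 and 43.8 TPM under the KO label. There it stood above Cpox, with 36.4 and 31.1 TPM, and above Fech, with 24.9 and 24.4 TPM. That order depends on the length used: with the longest annotated transcript, Alas2 had 43.9 and 43.2 TPM under the KO label, Cpox 65.8 and 55.9 TPM, and Fech 44.1 and 43.0 TPM. Cpox and Fech overlapped under the WT label, at 26.0 and 26.7 TPM for Cpox beside 26.0 and 24.0 TPM for Fech, so their order there is not resolved. Ppox and Uros were low in every library, between 10.8 and 13.8 TPM. Of the counts of both ALA synthases together, Alas2 took 5.32% and 4.83% in the KO-labelled libraries, against 1.27% and 1.33% in the WT-labelled libraries.

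Genes that supply the first and last steps rose along with Alas1. Of 13 genes for succinyl-CoA, glycine, pyridoxal phosphate and iron-sulfur or iron supply, 9 rose and 0 fell (edgeR; at an unadjusted p of 0.05, 1 was lower; with DESeq2 and limma-voom, 0), with a median log2 fold change of 0.35. The largest changes were in Sucla2 (0.51, SE 0.07, edgeR adjusted p = 4.47e-05) and Suclg1 (0.42, SE 0.07, adjusted p = 0.000110), subunits of succinyl-CoA ligase, and in the mitochondrial iron importer Slc25a28 (0.44, SE 0.09, adjusted p = 0.000843). Its paralogue Slc25a37, the importer of erythroid cells, had a log2 fold change of -0.18 and did not pass (adjusted p = 0.0703). Without EP300 WT replicate 1, 5 of the 13 passed upward, and Slc25a28 was not among them (adjusted p = 0.0519).

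Porphyrin and heme transporters moved both ways, with 6 of 13 higher, 3 lower and a median log2 fold change of 0.32. Of all genes tested 16.7% were higher and 17.5% lower, the shares against which this and the other lists are read, and 3 of 13 lower is near that background. Lists of cell markers also went beyond these shares. Of 12 hepatocyte markers, 5 were higher and 4 lower, and of 19 macrophage markers, 6 were higher and 5 lower. The 5 erythroid markers tested, with 1 higher and 0 lower, did not clearly do so. A share above that background is therefore not particular to heme genes. Abcb10, a mitochondrial transporter needed for heme synthesis in red cell precursors, rose by 0.82 on the log2 scale (SE 0.12, edgeR adjusted p = 3.99e-05). Abcg2, which exports porphyrins from the cell, had 58.7 and 57.9 CPM in the KO-labelled libraries, against 36.7 and 34.7 CPM in the WT-labelled libraries (log2 fold change 0.71, adjusted p = 1.84e-06). Flvcr2 fell by 1.30 (SE 0.12, adjusted p = 3.61e-07), and Slc48a1, which moves heme out of lysosomes, fell by 0.52 (SE 0.07, adjusted p = 3.75e-05).

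Among 15 known regulators of Alas1, 9 rose and 2 fell, with a median log2 fold change of 0.30. Nr1d1, the clock repressor REV-ERB alpha, had 1244 and 1071 counts in the KO-labelled libraries, against 284 and 295 in the WT-labelled libraries (log2 fold change 2.14, SE 0.09, edgeR adjusted p = 6.26e-11). Its labels are far apart, and 8.55% of its exon bases are shared with another gene. The coactivator Ppargc1b rose by 1.40 (SE 0.16, adjusted p = 6.47e-06), whereas Ppargc1a, the coactivator that induces Alas1 in fasting, fell by 0.48 (SE 0.12, adjusted p = 0.00404). The call for Ppargc1a was lost without either WT-labelled library, at adjusted p = 0.0838 without replicate 1 and 0.0813 without replicate 2. Nr0b2, a repressor induced by bile acids, rose by 0.68 (SE 0.09, adjusted p = 1.58e-05). Clpx, the unfoldase of the protease that degrades ALAS1 protein in the presence of heme, had 61.6 and 66.8 CPM in the KO-labelled libraries, against 89.4 and 92.7 CPM in the WT-labelled libraries (log2 fold change -0.50, adjusted p = 2.68e-05). Lonp1, also in this list, went the other way (0.22, SE 0.06, edgeR adjusted p = 0.00809). Its call was lost with library size alone (edgeR adjusted p = 0.0536) and without either WT-labelled library. The breakdown of ALAS1 protein was not tested.

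Hmox1 did not pass the test, while most of the other genes listed as targets of its regulator NRF2 fell. Of 16 NRF2 targets, 2 rose and 13 fell, with a median log2 fold change of -0.53. Cbr3, a carbonyl reductase, had 7.81 and 8.05 CPM in the KO-labelled libraries, against 32.9 and 36.3 CPM in the WT-labelled libraries (log2 fold change -2.12, SE 0.11, edgeR adjusted p = 3.35e-10). For the cystine transporter Slc7a11 the log2 fold change was -1.92 (adjusted p = 4.00e-09), and for the exporter Abcc4 it was -1.57 (adjusted p = 4.71e-10). The targets that rose were Me1, malic enzyme (1.17, adjusted p = 6.16e-09), and Ftl1, ferritin light chain (0.27, adjusted p = 0.00101), of which 34.6% of exon bases are shared with other genes. The Ftl1 call was lost without EP300 WT replicate 2 (0.0821), and with no count filter 8 targets passed downward.

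Of 8 regulators of Hmox1, 1 rose and 4 fell, with a median log2 fold change of -0.26. Nfe2l2, which encodes NRF2, had a log2 fold change of -0.16 and did not pass (edgeR adjusted p = 0.0983), and neither did its inhibitor Keap1 (-0.18, adjusted p = 0.125). Bach1, the heme-sensing repressor of Hmox1, fell by 0.37 (adjusted p = 0.000785). The small Maf proteins, partners of both, split: Maff fell by 0.82 and Mafk by 0.49, while Mafg rose by 0.38. Sqstm1 fell by 0.29 (edgeR adjusted p = 0.00357), a call that was lost with no count filter (0.152), and Hif1a did not pass (-0.23, adjusted p = 0.195). Mafg alone of the 8 had a positive log2 fold change.

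Past the ring opening, 4 of 11 genes of heme breakdown and bilirubin handling rose and 3 fell, with a median log2 fold change of 0.05. Blvrb, biliverdin reductase B, had 64.6 and 79.8 CPM in the KO-labelled libraries, against 118 and 118 CPM in the WT-labelled libraries (log2 fold change -0.70, SE 0.08, edgeR adjusted p = 5.91e-06). Blvra, the reductase that forms the main bilirubin isomer, did not pass (0.05, adjusted p = 0.809). Hmox2, the constitutive oxygenase, also missed the threshold (0.20, adjusted p = 0.0508), with 40.2% of its exon bases shared. Slco1a1, an organic anion uptake transporter, rose by 7.52 on the log2 scale (adjusted p = 2.47e-14). With no count filter, 1 gene of this list passed downward.

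Of the 5 genes for scavenging free heme or hemoglobin, 2 rose and 1 fell, with a median log2 fold change of 0.04. Cd163, the macrophage receptor for hemoglobin bound to haptoglobin, rose by 1.11 (SE 0.11, edgeR adjusted p = 1.22e-06), and Lrp1, the hemopexin receptor, rose by 0.29 (adjusted p = 0.00066). Haptoglobin, Hp, fell by 0.30 (adjusted p = 0.00126), a call that was lost without EP300 WT replicate 1 (0.0761) and without replicate 2 (0.132). The Lrp1 call was lost without EP300 WT replicate 2 (0.0841).

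Transcripts of proteins that use heme were called higher more often than lower. Of 23 heme-containing enzymes and their partners, 17 rose and 4 fell, with a median log2 fold change of 0.38. Cyp7b1, the oxysterol hydroxylase of bile acid synthesis, had 125 and 108 CPM in the KO-labelled libraries, against 13.7 and 11.7 CPM in the WT-labelled libraries (log2 fold change 3.20, SE 0.10, edgeR adjusted p = 6.61e-13). Cyp2f2 rose by 2.62 (adjusted p = 4.85e-14), and Cyp2d9 had 1245 and 1111 CPM in the KO-labelled libraries, against 188 and 176 CPM in the WT-labelled libraries. Reads of Cyp2d9 could be split among its near-identical copies, so its value is uncertain. Catalase, Cat, rose by 0.97 and the tryptophan dioxygenase Tdo2 by 0.94, while Cyp4a10 fell by 0.75 (adjusted p = 6.41e-07). The 4 lower calls were 2 without EP300 KO replicate 1, 2 without EP300 WT replicate 1 and 1 without EP300 WT replicate 2.

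**Figure D5:**
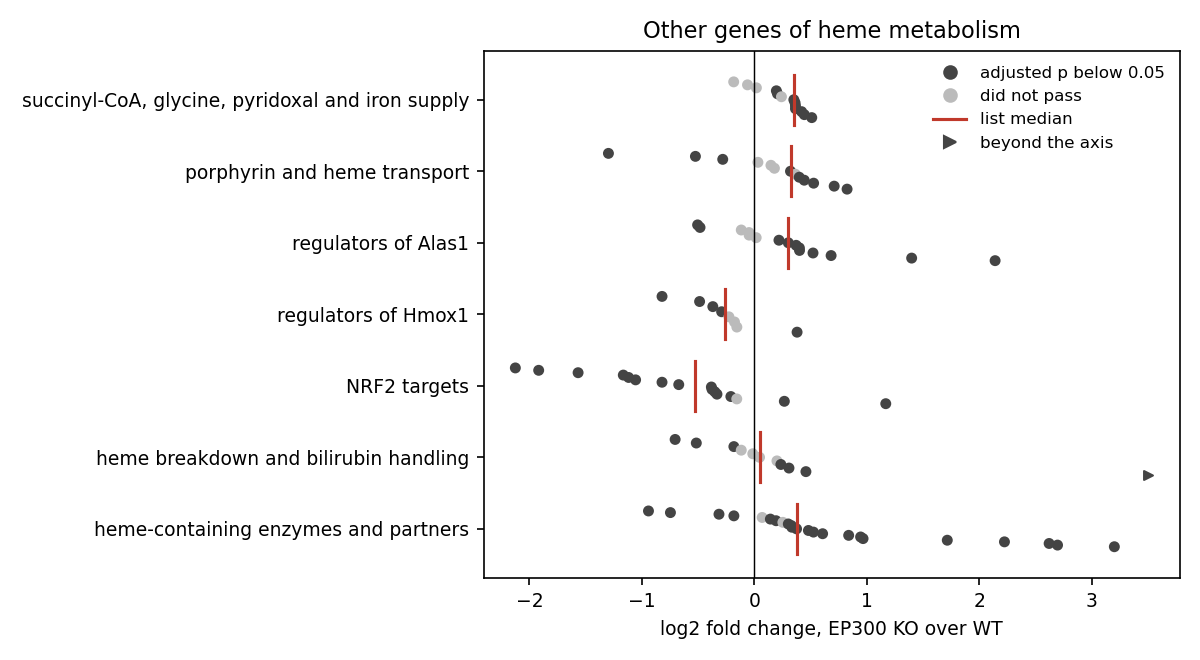
Log2 fold changes (EP300 KO over WT, edgeR) of the genes tested in 7 lists of heme metabolism; each point is a gene, dark where it passed an adjusted p of 0.05, the vertical line is the list median, and the arrowhead stands for Slco1a1, at 7.52, beyond the axis. The NRF2 targets lie mostly left of 0 (median -0.53) and the heme-containing enzymes mostly right (median 0.38).

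Markers of other liver cells also differed between labels. Of 12 endothelial and stellate markers, 8 fell and 0 rose (edgeR; 0 also at an unadjusted p of 0.05, with DESeq2 and with limma-voom), and their sum was 298 and 275 CPM in the KO-labelled libraries, against 445 and 432 CPM in the WT-labelled libraries. Without EP300 WT replicate 1, 4 of them passed downward. The 10 biliary markers summed to 135 and 140 CPM in the KO-labelled libraries, against 206 and 210 CPM in the WT-labelled libraries, with 1 of 7 tested higher and 3 lower. Most of that gap lay in 2 genes. Prom1 had 7.29 and 10.1 CPM under the KO label, against 44.9 and 46.9 CPM under the WT label. Spp1 had 95.6 and 95.8 CPM under the KO label, against 126 and 128 CPM under the WT label. Sox9 also fell (log2 fold change -0.78), Cldn4 rose (1.28), and Krt19 and Epcam did not pass. Krt7, a keratin of bile duct cells, had 4 and 9 counts under the KO label, against 10 and 6 under the WT label. Macrophage markers were mixed, with 6 of 19 higher and 5 lower and a sum of 1722 and 1631 CPM in the KO-labelled libraries, against 1563 and 1550 CPM in the WT-labelled libraries. Among these 19, Cd5l (log2 fold change -0.69, edgeR adjusted p = 1.73e-07) and Mrc1 (-0.39, adjusted p = 0.000193) were lower. Their higher genes included the scavenger receptor Marco (log2 fold change 2.59, adjusted p = 6.93e-09) and Gpnmb (1.35, adjusted p = 2.09e-09), and 3 passed upward without EP300 WT replicate 2. The 5 lower calls became 3 without EP300 WT replicate 1 and 2 without EP300 WT replicate 2. Of the 12 hepatocyte markers, 5 rose and 4 fell, and the lower calls became 2 when either WT-labelled library was left out and 1 without the 20 most abundant genes. The part of these markers in the values of the heme genes was not tested.

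The genes whose profile over the 4 libraries was closest to that of Alas1 were Slc22a5, Rcan1 and Arrdc2, by the root mean square difference of centred log2 CPM among 7899 genes. That difference was 0.0229 for Slc22a5, which encodes the carnitine transporter. Closest to Alas2 were Col27a1 (0.0537), Thrsp (0.0888) and Cyp2d9 (0.0911). Closest to Hmox1 were Grina (0.00249), Rab22a (0.00636) and Tmem82 (0.00795). With 4 libraries under 2 labels, such a likeness mostly restates a similar fold change, and it is given as a description.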

How the data were processed

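RNA of sorted liver cells was made into TruSeq RNA libraries, per the labels; that chemistry keeps no strand. The authors deposited raw read counts per gene. STAR, HTSeq, DESeq2 and mm10 appear in the submitters' processing notes without a role. The annotation and strand setting are not given in the sources used here. In the deposited table, 4 columns matched no sample and were not used, nor were the 6 diet tables.

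Counts of the 4 EP300 libraries were fitted with edgeR 4.0.16 (R 4.3.3) by the quasi-likelihood test, with TMM scaling, filterByExpr at a minimum count of 10, and Benjamini-Hochberg adjustment over 14200 genes at 0.05, with 2 residual degrees of freedom. The code of the test was also run on simulated data with the same variation under both labels. That setting is unlike these libraries, so it does not measure the error rate of the calls given here. TPM used exon lengths of GENCODE M21 (mm10). Same-group libraries differed by more than sampling noise (chi-square per degree of freedom 5.50 under the KO label, 2.60 under the WT label). DESeq2 1.42.0, limma-voom (limma 3.58.1), other scalings and filters, a replicate block and leaving out each library were alternatives. The named genes are the 9 members, Ep300, up to 3 called genes per list by size of change, and genes whose role a sentence needed, which were chosen after their values were seen. The members and lists were chosen with earlier results of these data known.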

Additional observations from a re-analysis of the deposited data

How the results depend on the processing

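Alas1, Alas2 and Cpox kept their direction and call in each alternative test, scaling, filter and left-out library, and Fech was called in none; with a 2-fold threshold added, Alas2 alone of the heme genes passed. The 4851 genes called became 2940 with DESeq2, 2703 with no filter, 1159 with a 2-fold threshold added, and 2306 to 5154 with a library left out (2602 without EP300 WT replicate 1, 2306 without replicate 2). The 2366 higher calls became 1518 with DESeq2, 1416 with no filter and 1160 to 2574 with a library left out, and the 2485 lower calls became 1422, 1287 and 1146 to 2580. The 5 heme genes called higher were 3 with DESeq2, 3 with no filter, 1 with the 2-fold threshold, and 3 to 5 with a library left out. Uros did not pass with DESeq2 (log2 fold change 0.29), with library size alone (0.22, adjusted p = 0.111), with no filter (0.30, adjusted p = 0.0790) or without EP300 KO replicate 2 or either WT-labelled library, and its value with any of the 4 libraries left out was 0.27 to 0.32. Ppox did not pass with DESeq2 (0.32), with no filter (0.33, adjusted p = 0.0545) or without either WT-labelled library, and its value with any of the 4 libraries left out was 0.28 to 0.37. Values near 0 changed sign: Alad was -0.0204 and Urod -0.00508 with library size alone, and with a library left out Alad ran from -0.0313 to 0.13, Urod from -0.0033 to 0.15 and Hmox1 from -0.11 to 0.0042. The cause of these shifts was not tested. With the longest annotated transcript as gene length, chosen after seeing the data, Alas1 made up 53.0% of the summed TPM under the KO label, against 42.4% under the WT label. Of 108 fold changes of the heme genes under alternatives, 93 kept direction and call, 10 lost the call and 5 changed sign, and of 312 list counts 275 stayed within 1.5 times. The replicate block gave 5190 calls and 5 heme genes higher and changed no call among them. Deviations of same-numbered libraries were not correlated (0.0176 over 11036 genes). With 2 libraries per label, that value cannot show whether same-numbered libraries share an animal or a day. With 2 libraries per label, changes as small as those of Alad, Urod, Fech and Hmox1 are not resolved.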
